A study of Mus musculus with 21 samples.

Results

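The 9 transcription factor genes described here, which mark or specify the interneuron classes V0, V1, V2 and V3 of the ventral spinal cord, were followed through motor neuron differentiation: *Evx1* and *Evx2* (V0), *En1* (V1), *Lhx5* (V0, V1, V2b and dorsal classes), *Vsx1* (V2 precursors), *Gata2*, *Gata3* and *Tal1* (V2b), and *Sim1* (V3). They were chosen by name, as 9 of the 55400 genes in the count table, and all 9 were in it. The data were 21 poly-A RNA-seq libraries in 7 groups of 3 biological replicates, made from C57BL/6 wild-type mouse embryonic stem cells (mESCs) directed to hypaxial motor column (HMC) motor neurons. Every culture received 1 µM retinoic acid and 0.5 µM of the Sonic Hedgehog agonist SAG from day 2. The medium given at day 5 was described without retinoic acid and SAG. In comparisons of D6 with earlier groups, stage and this withdrawal therefore cannot be told apart. The HMC protocol adds 5 µM DAPT, which blocks Notch signalling, to the medium changed at day 4 and again at day 5, so that the later groups carry it and the D4 group precedes it. The 4 untreated groups were D4 (motor neuron progenitors), D4H8 (proneural stage, 8 h later), D5 (newborn motor neurons) and D6 (maturing motor neurons). The 3 treated groups, D4H8_GSKJ4, D5_GSKJ4 and D6_GSKJ4, were exposed for 1 day before collection to GSKJ4, an inhibitor of the Kdm6 histone H3K27 demethylases. The cultures are mixed and not sorted, the mESCs had been grown on mitomycin-treated fibroblasts, and the dose of GSKJ4 given to the cultures was not stated in the sources used here. In such bulk libraries, fewer cells of a class and less RNA per cell cannot be told apart.

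In the ventral neural tube, Sonic Hedgehog sets progenitor domains that lie in order from p0 down to p3, with the motor neuron domain pMN between p2 and p3. Each domain gives rise to one cardinal class, and homeodomain, GATA, LIM and bHLH factors fix its identity and hold neighbouring programs off. *Evx1* gives V0 commissural neurons their identity, *En1* marks the inhibitory V1 class that includes Renshaw cells, and *Sim1* marks the excitatory V3 class that arises next to motor neurons. The p2 domain first makes V2 precursors with *Vsx1*. Notch signalling then divides them into excitatory neurons and inhibitory V2b neurons with *Gata2*, *Gata3* and *Tal1*, whose proteins act together in LIM-domain complexes. These factors are not particular to the cord: *Gata2* and *Tal1* also act in blood and endothelium, and *Evx1* in the primitive streak.

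Depth and library quality bear on how low a level could be read. Reads counted on genes numbered 14982115 to 34383842 per library (median 16238435), and a library holding 3 or fewer counts for a gene is called here at the floor, which corresponded to 0.0873 to 0.200 CPM (the count scaled to a fixed library total). Replicate 1 of D4H8 had the most reads. Replicate 2 of D5_GSKJ4 stood apart, with 39381 genes at 0 counts where the other libraries had 29339 to 32805, and with 13 of the 18 blood and endothelial genes at 0. For results described here, the value without such a library is given where leaving it out ends a call, turns a direction or changes the size of a difference markedly. All libraries carry the cell type label of differentiated motor neurons, and none of the 10 motor neuron genes was at 0 in any of them. All 10 rose from D4 to D6, where 32.9% of all tested genes did. The summed level of the 10 was 11.7 to 25.9 FPKM (the count scaled to gene length and library total) at D4 and 511.9 to 586.0 FPKM at D6.

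By abundance the fate factors fell into 2 sets. *Sim1*, *Gata2* and *Gata3* reached group means of 1.05 to 2.37 FPKM at their untreated maximum, whereas the other 6 never exceeded a group mean of 0.327 FPKM. No factor was at the floor in all 21 libraries, so none was absent throughout by that measure. *Evx2* came closest: it was at the floor in all 15 libraries of D4, D4H8, D4H8_GSKJ4, D5 and D5_GSKJ4. Only 4 of the 9 passed the filter on low counts in the fit of the 12 untreated libraries (*Sim1*, *Gata2*, *Gata3* and *Lhx5*), and the other 5 were left untested there and are described by their counts. For scale, *Sim1* in the D6 libraries stood at 4.44% ± 0.826 (SD, n = 3) of the FPKM of *Mnx1*, a motor neuron identity gene, and *Gata2* at 5.18% ± 2.22.

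**Figure D1:**
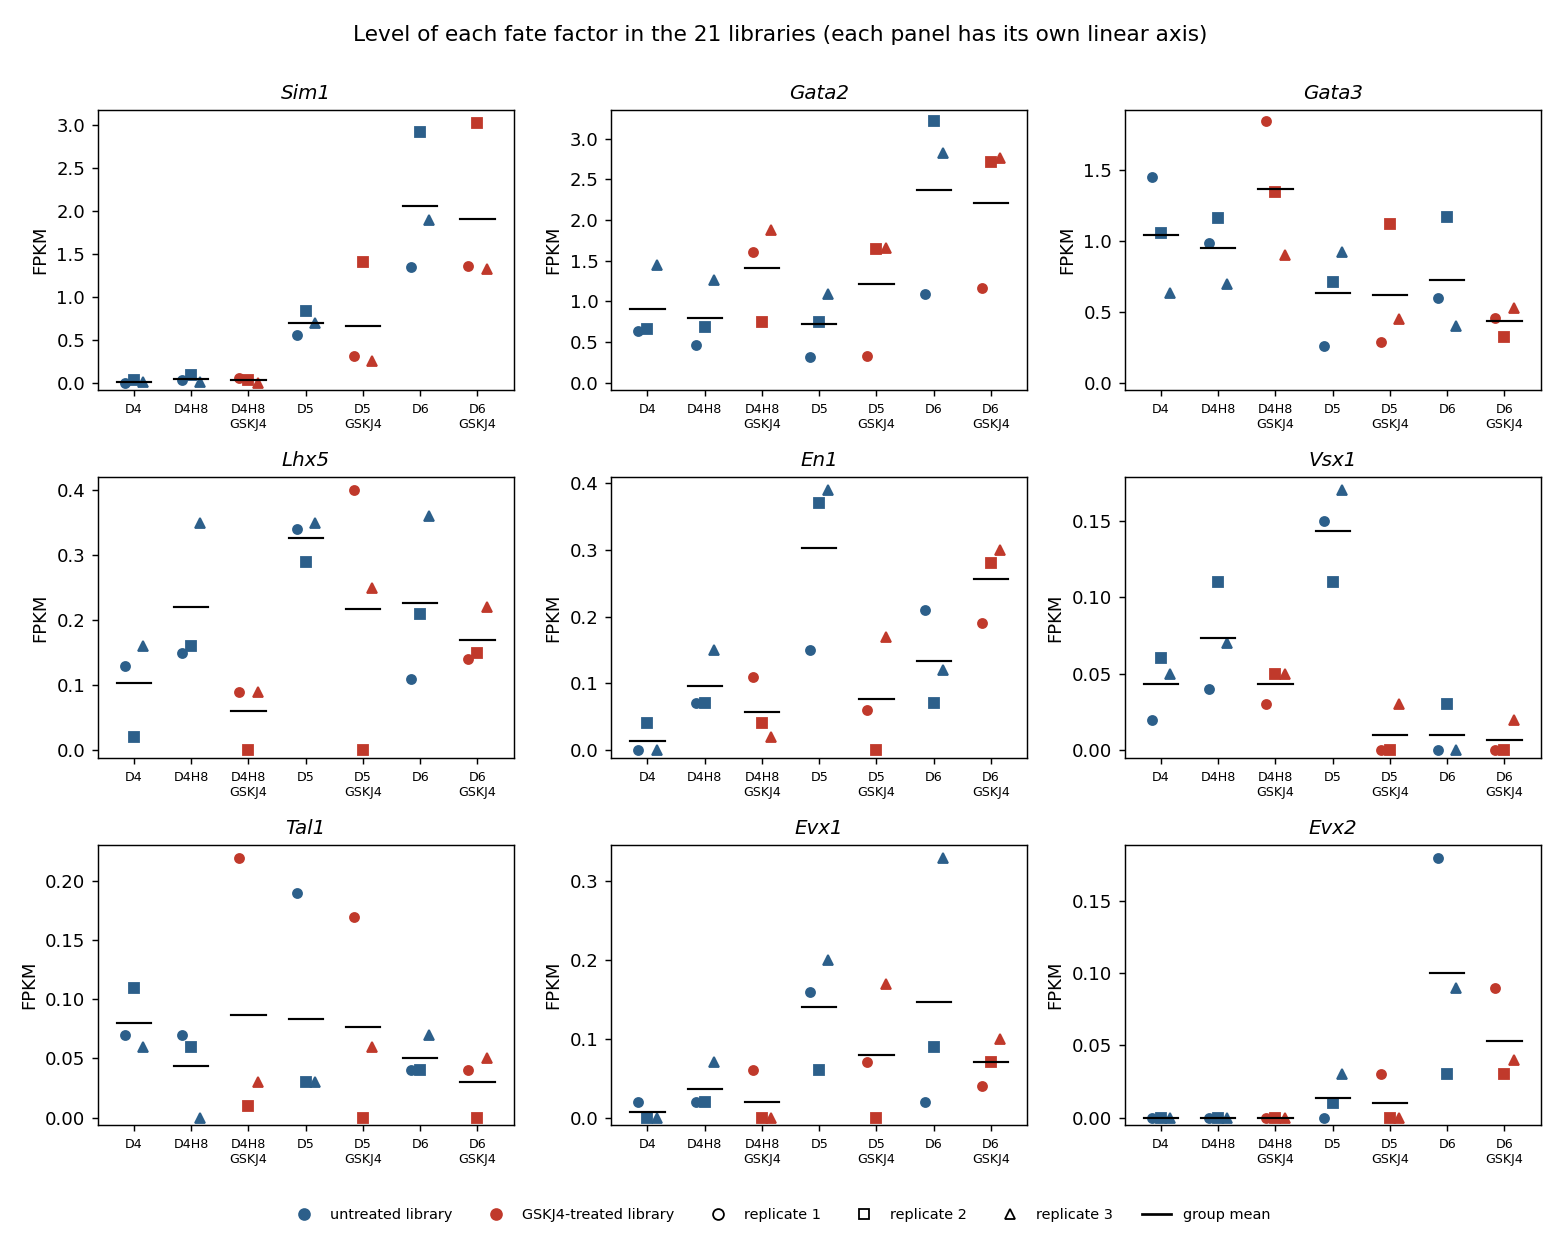
Level of the 9 fate factors in each library, in FPKM on a linear axis per panel, for the 7 groups along the horizontal axis. Points are libraries, marker shapes are replicate numbers, and black bars are group means. *Sim1* and *Gata2* have their highest means at D6, and *Vsx1* has its highest at untreated D5.

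*Sim1*, the V3 factor, showed the widest range of the 9. It had 0, 4 and 2 counts in the D4 libraries and 8, 13 and 1 at D4H8. At D5 it had 73, 121 and 94 counts, and at D6 it had 190, 401 and 256. The 3 D5 libraries were all above the D4H8 libraries, and the 3 D6 libraries all above those of D5. By the edgeR quasi-likelihood method, with p-values adjusted after Benjamini and Hochberg over 17519 genes, *Sim1* rose 16.8-fold from D4H8 to D5 (95% interval 7.31 to 38.8, log2 4.07 ± 0.560 SE, adjusted p = 0.000106). Without replicate 1 of D4H8 the log2 value was 3.75 (adjusted p = 0.00105). *Sim1* was the only one of the 4 tested factors to rise in that step, in which 17.2% of all tested genes rose and 43.1% did not overlap between the groups. *Sim1* passed the filter on low counts through its D5 and D6 libraries, and failed it in the fit of treated and untreated D4H8 libraries. How many tested factors rose from D4 or D4H8 therefore depends in part on that later level. *Sim1* then rose 3.18-fold from D5 to D6 (1.67 to 6.07, adjusted p = 0.00898). From D4 to D4H8 its log2 fold change of 1.57 (-0.31 to 3.46) did not pass the test (adjusted p = 0.395), and none of the 4 factors passed there, where 4.38% of all genes did. Without replicate 1 of D4H8 the log2 value was 1.89 (adjusted p = 0.558), still none of the 4 passed, and 1.94% of all genes did.

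Over the whole course the fitted difference of *Sim1* between D6 and D4 was 7.32 ± 0.662 on the log2 scale (adjusted p = 4.00e-07). Because the D4 libraries held 6 counts in all, the pooled 847 counts at D6 were also set against them. Their ratio, which is 165.1 after scaling to total counts, has a counting interval of 75.5 to 451.2. The step from D5 to D6 depended on the fit. It had an adjusted p of 0.0558 without replicate 2 of D6, the highest library, and of 0.0603 when all 21 libraries shared one fit.

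Other V3 and excitatory genes were read beside *Sim1*. *Uncx*, a homeobox gene of V3 neurons, rose in each step, by 2.46, 2.53 and 2.13 on the log2 scale (adjusted p = 0.0363, 0.000373 and 0.00046). The first of these calls rested on replicate 1 of D4H8, without which the value was 2.35 (adjusted p = 0.170). The ratio of *Sim1* to *Uncx* in FPKM was 41.2% ± 1.59 (SD, n = 3) in the D6 libraries. The study also lists *Uncx* among the genes bound by Kdm6b and the Isl1-Lhx3 complex that GSKJ4 lowered at D5. By edgeR here, its log2 fold change with GSKJ4 at D5 was -1.56 and did not pass (adjusted p = 0.976). Without replicate 2 of D5_GSKJ4 the log2 value was -0.98. *Nkx2-2*, the homeobox gene that sets the p3 domain, rose by 2.02 from D4 to D4H8 (adjusted p = 0.0105), a call that was lost without replicate 1 of D4H8 (1.70, adjusted p = 0.0636), and was 1.31 higher at D6 than at D4 (adjusted p = 0.0123). *Nkx2-9*, its relative in ventral progenitors, instead fell by 6.07 from D4 to D6 (adjusted p = 4.13e-09). Its mean level was 69.5 FPKM ± 16.1 at D4 and 0.977 FPKM ± 0.384 at D6.

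Of the 3 vesicular glutamate transporter genes, which V3 and other excitatory neurons use, all were tested and 2 rose from D5 to D6, beside 19.2% of all tested genes. *Slc17a6* was at 0 counts in all D4 and D4H8 libraries, had 2 to 9 counts at D5 and 118 to 211 at D6, and rose by 5.24 from D5 to D6 (adjusted p = 6.04e-05). *Slc17a8* rose by 5.99 in that step (adjusted p = 1.28e-05). *Slc17a7* had 49 to 72 counts at D5 and 26 to 51 at D6, a log2 difference of -0.43 that did not pass (adjusted p = 0.458). Of the 9 genes of GABA and glycine transmission, 8 were tested from D4 to D6, and 5 rose and 1 fell, where 32.9% of all tested genes rose and 31.0% fell. The genes of this list that rose included *Glra2* and *Gphn*, a receptor subunit and a scaffold that neurons receiving inhibition also carry. *Gad1*, the GABA synthesis enzyme, had 6 to 17 counts in the D6 libraries and a log2 difference of 0.10 from D4 that did not pass (adjusted p = 0.872).

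**Figure D2:**
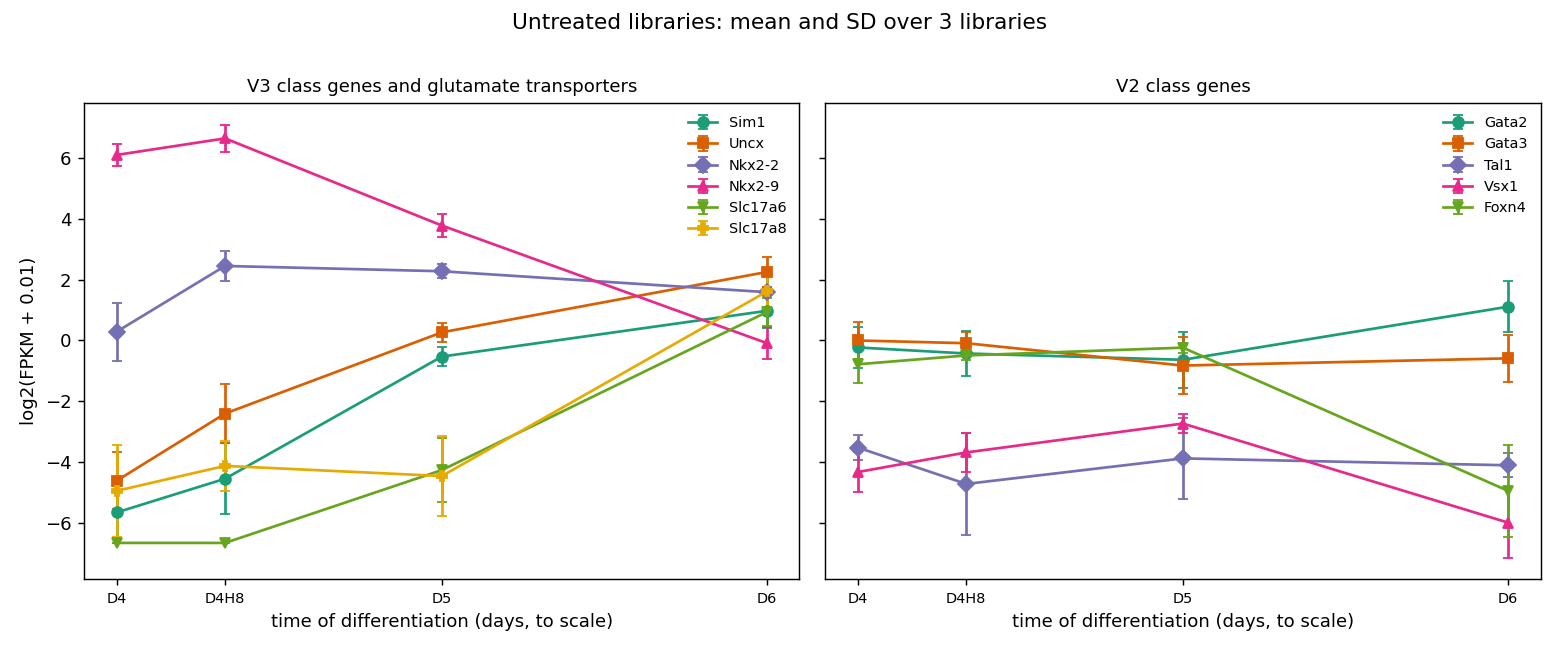
Untreated D4, D4H8, D5 and D6 libraries, with time in days on the horizontal axis and log2(FPKM + 0.01) on the vertical axis. Points are means and bars SDs over 3 libraries. *Sim1*, *Uncx*, *Slc17a6* and *Slc17a8* end higher than they begin while *Nkx2-9* ends lower, and *Vsx1* and *Foxn4* end below their D5 level while *Gata2* ends above it.

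Across all 21 libraries, the genes whose log2 CPM followed *Sim1* most closely were *Col26a1* (Pearson r = 0.966), *Clstn2* (0.964) and *Nell2* (0.963), among 12051 genes with a mean of at least 50 counts. The motor neuron gene *Isl1* had r = 0.91, *Mnx1* 0.87 and *Uncx* 0.75, and in replicate 2 of D5_GSKJ4 *Uncx* had 0 counts beside 191 of *Sim1*. Without that library and replicate 1 of D4H8, r over the other 19 was 0.919 for *Uncx*, 0.964 for *Col26a1*, 0.974 for *Clstn2* and 0.968 for *Nell2*, and the last 3 then ranked 51, 4 and 17. These points share the stage series and the library depths, and the values are a description.

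*Gata2* was higher at D6 than at D5 or D4. It had 77, 61 and 126 counts at D4, 85, 60 and 102 at D4H8, 26, 67 and 93 at D5, and 96, 276 and 239 at D6. In CPM the D5 and D6 libraries still overlapped by a small margin, with 5.90 as the highest at D5 and 5.88 as the lowest at D6. The fitted rise from D5 to D6 was 3.56-fold (1.71 to 7.43, log2 1.83 ± 0.494, adjusted p = 0.0112). *Sim1* and *Gata2* were thus the 2 of 4 tested factors that rose in this step, beside 19.2% of all tested genes. The earlier steps gave -0.24 and -0.13 on the log2 scale and did not pass (adjusted p = 0.841 and 0.877). Without replicate 1 of D4H8 they were 0.05 and -0.42 (adjusted p = 0.990 and 0.622).

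The same 2 of 4 were higher at D6 than at D4, where 32.9% of all tested genes were. For *Gata2* this difference was 2.75-fold (1.34 to 5.66, adjusted p = 0.0168) and depended on single libraries: without replicate 1 of D4, replicate 2 of D4 or replicate 2 of D6 the adjusted p was 0.0655, 0.0675 and 0.0699. The rise from D5 to D6 had an adjusted p of at most 0.0453 in every refit that left out a library or changed the scaling, filter or tool. Libraries with the same replicate number moved the same way from D5 to D6, with *Gata2* CPM ratios of 3.49, 4.31 and 2.58.

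The libraries numbered 1 had the lowest *Gata2* of their group at D4, D4H8, D5, D5_GSKJ4, D6 and D6_GSKJ4. In D6 they held 5.88 CPM where the others held 15.2 and 17.3, and in D6_GSKJ4 6.28 CPM where the others held 14.6 and 14.9. The summed level of 6 pluripotency genes was also lowest there, at 12.2 FPKM in replicate 1 of D6 and 90.0 to 100.3 FPKM in the other 2 libraries. Its part in the spread of *Gata2* was not tested.

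**Figure D3:**
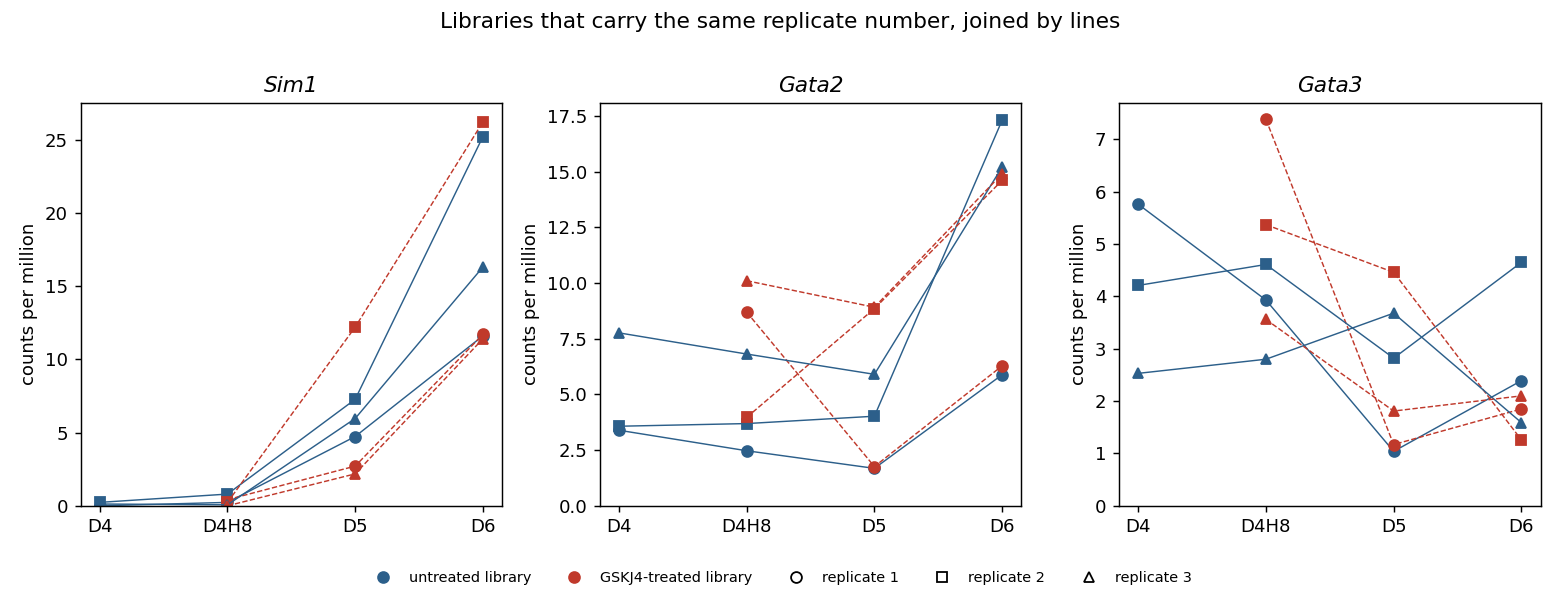
CPM of *Sim1*, *Gata2* and *Gata3* by stage, with libraries of the same replicate number joined by lines (solid for untreated, dashed for GSKJ4-treated). *Gata2* rises from D5 to D6 along every line, and the lines numbered 1 lie lowest at D5 and D6.

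Because *Gata2* is also a blood and endothelial factor, the 18 genes of a blood and endothelial list were read beside it. From D4 to D6, 13 were tested, 5 rose and none fell, with a median log2 fold change of 1.46 against -0.04 for all tested genes. Of all tested genes, 32.9% rose and 31.0% fell. From D5 to D6, the step in which the *Gata2* call held in every refit, 2 of the 13 rose and 2 fell. Their median in that step was -0.34 against -0.02 for all tested genes, of which 19.2% rose and 15.1% fell. *Runx1*, which some neurons also use, had 8 to 16 counts at D4 and 1354 to 3473 at D6. *Cdh5*, the endothelial cadherin, had 3 to 12 counts at D4 and 54 to 140 at D6. *Lmo2*, a LIM-only gene that was also put on the list of V2 partners read below, had 12 to 23 and 72 to 167. *Ptprc*, the pan-leukocyte gene, stayed at 3 counts or fewer in all libraries, *Spi1* at 5 or fewer, *Gata1* at 10 or fewer and *Klf1* at 29 or fewer. The 3 embryonic globin genes of the list were higher and uneven, up to 134 counts for *Hbb-y*, 76 for *Hba-x* and 72 for *Hbb-bh1*. All 3 were highest in replicate 1 of every group from D4H8 on, treated or not, and none passed between D4 and D6 (adjusted p = 0.442, 0.0516 and 0.781). Summed over the list, the level was 4.78 to 8.93 FPKM at D4 and 18.1 to 33.4 FPKM at D6. The highest D6 library was replicate 1, where *Runx1* alone held 17.69 FPKM and *Gata2* was lowest. In replicates 1, 2 and 3 of D6, *Cdh5* had 3.31, 5.34 and 8.93 CPM and *Lmo2* 4.41, 10.5 and 5.55. These genes were thus lowest in replicate 1, as *Gata2* was, while *Runx1* was highest there (212.7 CPM against 85.1 and 130.3). The part of other cell types in the *Gata2* level was not tested beyond these values.

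*Gata3*, the partner of *Gata2* in V2b neurons, did not follow it. *Gata3* had 131, 72 and 41 counts at D4, 135, 75 and 42 at D4H8, 16, 47 and 58 at D5, and 39, 74 and 25 at D6. The groups overlapped in every step, and the log2 fold changes of -0.22, -0.60 and 0.31 did not pass the test (adjusted p = 0.845, 0.394 and 0.656). Over the 21 libraries the correlation of *Gata3* with *Gata2* was 0.01. *Gata2* was most alike *Baiap3* (r = 0.908), *Tgfbi* (0.858) and *Fam149a* (0.833), and *Gata3* was most alike *Wars* (0.794), *D11Wsu47e* (0.789) and *Flrt3* (0.781). Without both libraries that stand apart, these ranked 1, 5 and 3 for *Gata2* and 8, 6 and 11 for *Gata3*. Before D6 the untreated group means were 0.717 to 0.910 FPKM for *Gata2* and 0.630 to 1.05 FPKM for *Gata3*. *Gata3* shares exons with an antisense gene of 0 to 6 counts and with a gene on its own strand of 0 to 5 counts.

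*Tal1*, the bHLH factor that acts with the GATA pair, had 0 to 16 counts per library and no group mean above 0.0867 FPKM. Its highest values were in libraries numbered 1, with 16 counts in D4H8_GSKJ4, 13 in D5 and 14 in D5_GSKJ4, and its other values in these groups were at most 4 counts. The blood and endothelial list was highest in the same libraries. Its summed level was 15.3 FPKM in D4H8_GSKJ4 against 7.95 and 8.73 in the other 2 libraries, 32.6 FPKM in D5 against 8.01 and 8.15, and 23.6 FPKM in D5_GSKJ4 against 4.00 and 5.64. *Hbb-y*, an embryonic globin, had 32, 134 and 95 counts in these libraries and at most 4 in the others of their groups. Replicate 1 of D6 had 52 counts of *Hbb-y* and 3 of *Tal1*. The part of blood cells in the *Tal1* counts was not tested. The 7 groups overlapped with their neighbours in order of level, and the gene failed the filter in every stage and treatment fit.

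*Vsx1*, the V2 precursor gene, had 2, 4 and 3 counts at D4, 5, 7 and 4 at D4H8, 9, 7 and 10 at D5, and 0, 2 and 0 at D6. Its D5 libraries were all above its D6 libraries, and the pooled counts of 26 and 2 give a ratio of D6 to D5 of 0.0768 with a counting interval of 0.00883 to 0.307. Such a gap between groups was common, since 48.5% of all genes tested between D5 and D6 did not overlap either. *Vsx1* failed the filter on low counts. With the filter removed, it fell by 3.41 on the log2 scale (adjusted p = 0.0179), in a fit that called 18.1% of 34033 genes. *Foxn4*, which acts before *Vsx1* in the p2 domain and was singled out after its values were seen, had 39 to 50 counts at D5 and 0 to 3 at D6, and fell by 4.57 (adjusted p = 3.63e-05).

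Upstream sequence is shown for *Gata2*, *Tal1* and *Evx2*. These are the 3 factors whose window of 250 bases before a RefSeq start (GRCm38.p6) lies outside annotated exons and outside the gene. *Gata2* rose from D5 to D6, while *Tal1* and *Evx2* had at most 16 and 12 counts in any library. RefSeq windows were found for 8 of the 9 genes. Capitals mark the core letters GATA or TATC (the GATA factor core on either strand) and TAAT or ATTA (the homeodomain core on either strand), counted also where they overlap each other. Of all 32851 promoter windows of this length, 53.6% held a GATA core and 54.9% a homeodomain core.
*Gata2*, chr6:88193641-88193890, plus strand: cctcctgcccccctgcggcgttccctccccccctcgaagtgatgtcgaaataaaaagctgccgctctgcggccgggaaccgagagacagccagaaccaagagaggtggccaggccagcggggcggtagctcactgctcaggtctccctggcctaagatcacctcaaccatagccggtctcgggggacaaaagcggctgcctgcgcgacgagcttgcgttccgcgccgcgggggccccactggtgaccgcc
*Tal1*, chr4:115056176-115056425, plus strand: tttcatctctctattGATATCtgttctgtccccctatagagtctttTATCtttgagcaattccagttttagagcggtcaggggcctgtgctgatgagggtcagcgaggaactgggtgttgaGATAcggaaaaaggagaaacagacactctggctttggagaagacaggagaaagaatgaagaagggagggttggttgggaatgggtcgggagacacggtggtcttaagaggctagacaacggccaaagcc
*Evx2*, chr2:74659558-74659807, minus strand: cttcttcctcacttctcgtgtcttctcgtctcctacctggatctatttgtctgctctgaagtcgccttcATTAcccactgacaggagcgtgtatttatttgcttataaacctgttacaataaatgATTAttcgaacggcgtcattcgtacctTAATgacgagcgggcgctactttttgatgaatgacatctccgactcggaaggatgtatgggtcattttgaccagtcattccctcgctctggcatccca

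The *Tal1* window held 4 GATA cores and the *Evx2* window 3 homeodomain cores, while the *Gata2* window held neither and was the richest of the 3 in CG dinucleotides, with 22 against 6 in *Tal1* and 14 in *Evx2*. The median window of all genes held 6. *Tal1* and *Gata2* each have another RefSeq window, which lies inside the gene and is not shown. That of *Tal1* held no GATA core, 2 homeodomain cores and 16 CG dinucleotides. That of *Gata2* held no core of either kind and 24 CG dinucleotides. These letters describe the windows and say nothing about which factor was bound there.

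The V0 genes had few counts throughout, with at most 15 of *Evx1* and 12 of *Evx2* in any library. *Evx1* had 1, 0 and 0 counts at D4, 2, 1 and 3 at D4H8, 7, 3 and 9 at D5, and 1, 4 and 15 at D6. *Evx2* had 0 counts in all D4 and D4H8 libraries, 0, 1 and 2 at D5, and 12, 2 and 6 at D6. Both were higher in CPM in every D6 library than in any D4 library, and 69.3% of all tested genes likewise did not overlap between these groups, in one direction or the other. For *Evx1* the margin was that of a single count, since replicate 1 of D6 and the deeper replicate 1 of D4 each had 1. For *Evx1* the pooled counts of 20 and 1 gave a ratio of 23.4 (counting interval 3.74 to 969.5). For *Evx2* the 20 counts at D6 correspond to at least 2.60-fold more than D4, taking 3 counts per library as the limit that a count of 0 allows.

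*Evx1* (chromosome 6, 52313498 to 52318378, GRCm38) and *Evx2* (chromosome 2, 74652991 to 74659557) sit at the ends of the HoxA and HoxD clusters, 52.6 kb from *Hoxa13* and 8.8 kb from *Hoxd13*. *Hoxa13* had at most 11 counts and *Hoxd13* at most 30 in any library. On their other sides, *Hibadh* had 354 to 1063 counts and *Lnpk* 724 to 2069. *Evx1* shares exons with an antisense gene on the other strand, *Evx1os*, which had 0 to 10 counts, and the counting strand was not stated, so reads of these 2 genes may be mixed. Of the 12 primitive streak, mesoderm and endoderm genes, 7 were tested from D4 to D6, and 1 rose and 3 fell. Of all tested genes, 32.9% rose and 31.0% fell there. Summed over this list, the level was 6.92 to 16.7 FPKM per library. Within it, *T* and *Mixl1*, markers of the streak where *Evx1* also acts, had at most 12 and 14 counts.

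*En1*, the V1 gene, had 0, 2 and 0 counts at D4, 6, 3 and 6 at D4H8, 6, 16 and 16 at D5, and 9, 3 and 5 at D6. Its D4 libraries lay below all D4H8 and all D6 libraries in CPM, as did those of *Evx1*, and between D4 and D4H8 24.5% of tested genes did not overlap. The D5 libraries of *En1* overlapped those of both neighbouring stages. Its pooled ratio of D6 to D4 was 9.94 (counting interval 2.36 to 88.7). *Lhx5*, a LIM homeobox gene of V0, V1 and V2b neurons among others, had 8, 1 and 7 counts at D4, 14, 7 and 14 at D4H8, 14, 13 and 15 at D5, and 5, 9 and 15 at D6. *Lhx5* was tested, and none of its steps passed (log2 0.93, 0.62 and -0.43, adjusted p = 0.485, 0.460 and 0.602). An antisense gene with 0 to 3 counts overlaps its exons.

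Calls for the least abundant genes depended on the filter. With it removed, 5 of 9 factors were called between D4 and D6, against 34.1% of 34033 genes. These were *Sim1* and *Gata2* together with *Evx2* (log2 6.02, adjusted p = 0.00327), *Evx1* (4.16, adjusted p = 0.00430) and *En1* (3.13, adjusted p = 0.0124), and the last 3 each rest on 20 counts or fewer at D6.

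Among 28 other factors of spinal interneuron classes, 19 were tested from D4 to D6, of which 10 rose and 4 fell, with a median of 0.79 against -0.04 for all tested genes. Of all tested genes, 32.9% rose and 31.0% fell between these stages. *Uncx* rose most (7.13), followed by the dorsal horn factor *Bcl11a* (6.16). *Bhlhe22*, used in V2 and dorsal neurons, went up by 1.64 from D4H8 to D5 (adjusted p = 0.0106, or 0.0276 without replicate 1 of D4H8) and down by 1.79 from D5 to D6 (adjusted p = 0.00599). *Lhx1*, the LIM partner that V0, V1 and V2b neurons share with *Lhx5*, was far more abundant than *Lhx5*, at 3.90 FPKM ± 0.807 (SD, n = 3) against 0.227 FPKM ± 0.126 at D6, and motor neurons use it too.

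The question whether inhibiting Kdm6 changes the fate factors was addressed at D4H8, D5 and D6. No factor passed the test at any of the 3 stages. The number tested was 2 at D4H8, 4 at D5 and 3 at D6. The background differed by stage, with 3.96% of 16269 genes called at D4H8, 0.00613% of 16309 at D5, which is 1 gene, and 0.00% of 16301 at D6. At D6, 222 genes (1.36%) had an unadjusted p under 0.05, DESeq2 called 1 gene, and a fit with the replicate number as a block, which pairs the libraries, called 257 (1.58%). At D4H8, DESeq2 called 2215 genes (13.6%) and the fit with the block 2274 (14.0%), and at D5 they called 73 (0.448%) and 4 (0.0245%). No fate factor was among the genes called by DESeq2 or with the block at any of the 3 stages. *Kdm6b*, the demethylase the inhibitor was used against, and *Kdm6a* were not called at any stage, at log2 fold changes between -0.09 and 0.25 for the pair.

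**Figure D4:**
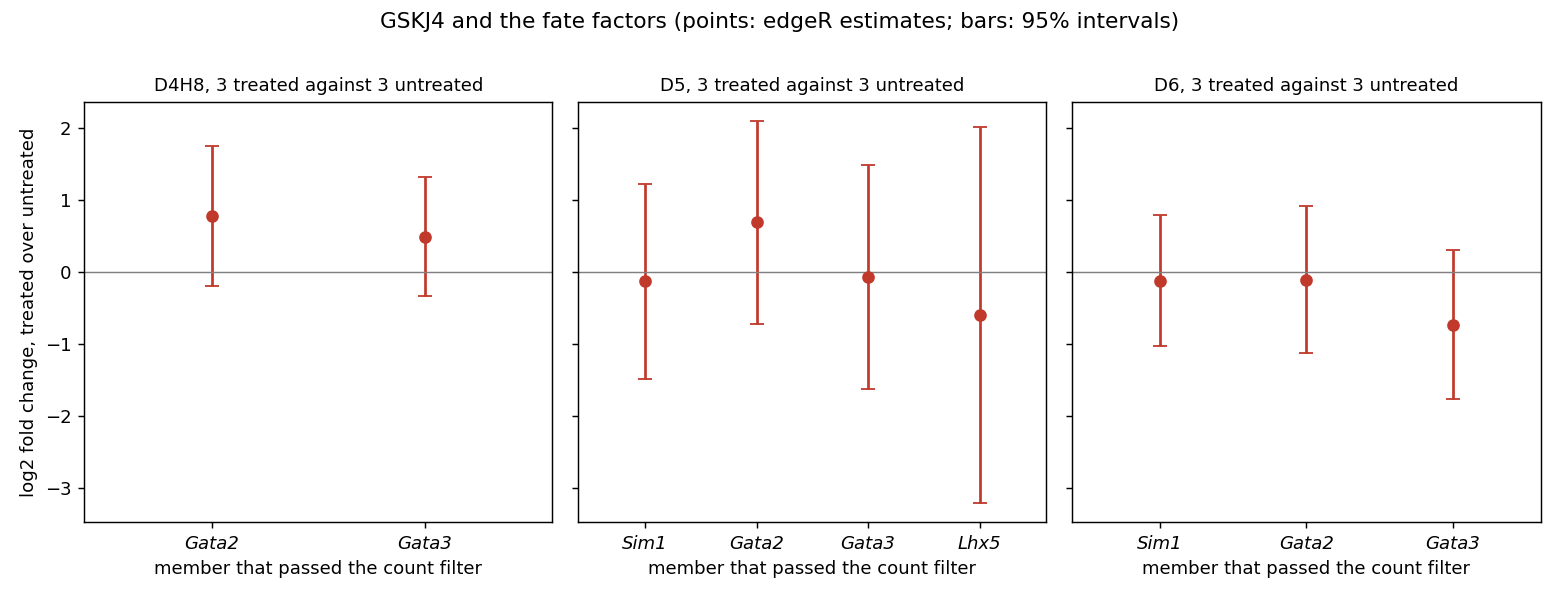
GSKJ4 effect on each fate factor that passed the filter on low counts, as the log2 fold change of 3 treated over 3 untreated libraries at D4H8, D5 and D6. Points are edgeR estimates and bars 95% intervals, and every interval includes 0.

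At D4H8, *Gata2* had 146, 68 and 159 counts with GSKJ4 and 85, 60 and 102 without. The untreated set includes the deepest library. In CPM the groups were 7.59 ± 3.22 and 4.32 ± 2.24 (SD, n = 3), and they overlapped. The log2 fold change of 0.77 had an interval of -0.20 to 1.75 (adjusted p = 0.297). *Gata3* had 124, 92 and 56 counts with GSKJ4, a log2 fold change of 0.49 (-0.34 to 1.32, adjusted p = 0.436). In the same contrast, where 1.85% of all tested genes fell, 7 of 17 tested ventral progenitor genes fell and none rose. *Olig2* and *Nkx2-9* were among those that fell. Of 25 tested partners of the V2 decision in the LIM and Notch pathways, 8 fell, among them *Hes5* and *Dll1*. Without replicate 1 of untreated D4H8 the number of genes called at D4H8 was 43 (0.256%) instead of 644, and of the 2 lists only 2 of 18 ventral progenitor genes, *Olig2* among them (log2 -3.68, adjusted p = 0.0392), and 1 of 25 V2 partners still passed. *Nkx2-9*, *Hes5* and *Dll1* did not (-2.15, -2.88 and -3.12, adjusted p = 0.106, 0.116 and 0.0817). Still no factor was called without that library, and the log2 values were 0.49 for *Gata2* (adjusted p = 0.632) and 0.54 for *Gata3* (adjusted p = 0.597).

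*Lhx5* had 4, 0 and 4 counts at D4H8 with GSKJ4 and 14, 7 and 14 without, groups that did not overlap in CPM, as was the case for 32.9% of tested genes. Without replicate 1 of untreated D4H8 the other 2 untreated libraries, at 7 and 14 counts, still lay above all 3 treated ones. It was under the filter, and without the filter, where 7.34% of genes were called, its log2 fold change of -1.86 had an adjusted p of 0.257. The other 6 factors overlapped between treated and untreated D4H8 libraries or, for *Evx2*, were at 0 in all 6.

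At D5 the treated libraries varied widely. *Sim1* had 51, 191 and 35 counts with GSKJ4 and 73, 121 and 94 without, and its log2 fold change of -0.13 (-1.49 to 1.22, adjusted p = 0.985) came with 2 lower libraries and 1 higher. The higher one was replicate 2 of D5_GSKJ4, the library with many genes at 0, and without it the log2 fold change was -1.31. *Gata2* had 33, 139 and 143 counts with GSKJ4, 0.69 (-0.72 to 2.10, adjusted p = 0.976). *Gata3* had 22, 70 and 29 (-0.07, -1.63 to 1.49, adjusted p = 0.994), and *Lhx5* had 20, 0 and 11 (-0.60, -3.21 to 2.01, adjusted p = 0.976), where the 0 is again replicate 2. Without that library the log2 values were 0.41 for *Gata2*, -0.78 for *Gata3* and -0.02 for *Lhx5*.

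*Vsx1* was the one factor with groups apart at D5, where 11.6% of tested genes did not overlap. It had 0, 0 and 2 counts with GSKJ4 and 9, 7 and 10 without, a pooled ratio of 0.0728 (counting interval 0.00837 to 0.291). Leaving out replicate 2 of D5_GSKJ4 keeps the remaining treated libraries, at 0 and 2 counts, below all 3 untreated ones. *Vsx1* failed the filter, and without the filter, where 0.423% of genes were called, its log2 fold change of -3.58 had an unadjusted p of 0.0401 and an adjusted p of 0.872 by edgeR. The untreated D6 libraries held 0, 2 and 0. *Foxn4* had 2 to 68 counts with GSKJ4 and 39 to 50 without, groups that overlapped (log2 -0.54, adjusted p = 0.976). The 2 counts were in replicate 2 of D5_GSKJ4, without which the log2 value was 0.02 (adjusted p = 0.999).

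At D6 neither *Sim1* nor *Gata2* passed the test. *Sim1* had 190, 395 and 190 counts with GSKJ4 and 190, 401 and 256 without, a fold of 0.922 with an interval of 0.491 to 1.73 (adjusted p = 1.00). *Gata2* had 102, 221 and 248 and a fold of 0.927 (0.456 to 1.88, adjusted p = 1.00). Libraries of the same replicate number had treated to untreated CPM ratios of 1.01, 1.04 and 0.698 for *Sim1* and 1.07, 0.844 and 0.976 for *Gata2*. *Gata3* had 30, 19 and 35 counts with GSKJ4 and 39, 74 and 25 without (log2 -0.73, -1.77 to 0.31, adjusted p = 1.00). For each of the 9 factors the treated and untreated D6 libraries overlapped, while 5.30% of tested genes did not.

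Differences between the GSKJ4 effects of 2 stages were tested for the 6 factors that passed the filter over 18 libraries, and none passed in any of the 3 differences, where 0.249%, 0.00% and 0.735% of 18103 genes did (D5 minus D4H8, D6 minus D5 and D6 minus D4H8). Without replicate 1 of D4H8 the shares of the first and last were 0.0855% and 0.214%, and still no factor passed. With DESeq2 these shares were 1.36% and 3.33%, and no factor passed there either. At D6 minus D5, where no gene of the 18103 passed in edgeR, 358 (1.98%) had an unadjusted p under 0.05 and DESeq2 called 1. *En1* was one of the 358. It had 3, 0 and 7 counts with GSKJ4 at D5 against 6, 16 and 16 without, and 8, 11 and 13 at D6 against 9, 3 and 5. The difference of 2.88 ± 1.16 on the log2 scale had an unadjusted p of 0.0235 and an adjusted p of 1.00 by edgeR, and the treated and untreated libraries overlapped at both stages. The 0 was in replicate 2 of D5_GSKJ4, without which the difference was 2.32 (adjusted p = 1.00).

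In order of CPM over all 7 groups, only a few neighbouring groups of any factor were apart. *Sim1* had gaps between D6_GSKJ4 and D5 and between D5_GSKJ4 and D4H8, and overlapped between treated and untreated libraries of each stage. *Evx2* had a gap between D6_GSKJ4 and D5. For *Gata2*, *Gata3*, *Lhx5*, *En1*, *Vsx1*, *Tal1* and *Evx1* every group overlapped with the next in order.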

How the data were processed

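Poly-A RNA-seq was measured in 21 libraries, 7 groups of 3 biological replicates. The study describes the replicates of each stage as biologically independent experiments. Whether libraries of the same number were grown together is not stated in the sources used here. The authors trimmed reads with Fastp, aligned them to mm10 with Hisat2, counted them per gene with HTSeq-count and deposited raw counts for 55400 genes. The authors also deposited FPKM, made from these counts and exonic gene lengths. FPKM recomputed from the counts differed by at most 0.00500. The counting strand was not given in the sources used here. Symbols and positions came from GENCODE M21 on GRCm38, with 55140 genes named.

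Counts were tested with edgeR 4.0.16 (quasi-likelihood, TMM scaling, filterByExpr with a minimum count of 10) in R 4.3.3, with Benjamini-Hochberg adjustment over all tested genes and a threshold of 0.05. Stage contrasts used the 12 untreated libraries in one fit, each GSKJ4 contrast its own 6 libraries, and differences of GSKJ4 effects 18. Intervals given as counting intervals are exact binomial intervals at 95% on pooled counts, scaled by total counts, and they cover counting error only. Log2 CPM for correlations used a prior count of 2. The fits were also run on counts simulated for D6 against D5 and GSKJ4 at D5. There edgeR recovered 53% and 57% of log2 changes of 1. False calls made up 6.17% and 4.85% of its calls, and 10.3% and 9.58% of those of DESeq2. The changed genes were drawn above a count that most fate factors did not reach, with a fixed spread, so these shares do not cover the low factors.

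Alternatives were DESeq2 1.42.0, scaling by RLE or by upper quartiles, leaving the filter out, asking for 10 counts in each library, the replicate number as a block, a single fit of all 21 libraries, and leaving out libraries 1 at a time. Gene lists and correlations without replicate 1 of D4H8 or replicate 2 of D5_GSKJ4 were added after seeing the data. To check whether replicate numbers pair libraries, each library's deviations from its group mean were correlated over 18349 genes between same-numbered libraries. All 3 correlations exceeded 0.1 for D4H8 and D5 (0.137 to 0.315), D5 and D6 (0.144 to 0.310) and D6 with and without GSKJ4 (0.316 to 0.663). In the other 4 comparisons they did not all exceed it. The 21 pairs of libraries within groups had a mean chi-square per gene of 6.94 or more, so none was counted as a duplicate.

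The 9 genes and the gene lists were chosen with earlier results of these data known. From each list and comparison, up to 4 genes could be named, taken by absolute log2 fold change from those that passed the test and averaged at least 50 counts. Defining markers of motor neurons, blood and endothelium, and mesoderm and endoderm, *Kdm6a* and *Kdm6b*, the nearest protein-coding genes and the 3 genes most correlated with a fate factor could also be named. *Foxn4*, *Lhx1*, *Gad1*, *Slc17a7* and *Spi1*, and further comparisons of *Nkx2-2*, were added after their values were seen. Some genes of the lists are counted but not reported here by name.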

Additional observations from a re-analysis of the deposited data

How the results depend on the processing

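Depth limited the 5 factors left untested in the stage fit, whose counts were too low for the filter. The numbers of fate factors called were 0, 1, 2 and 2 for D4H8 against D4, D5 against D4H8, D6 against D5 and D6 against D4, and 0 in each GSKJ4 comparison and difference. Asking for 10 counts in each library left 0, 1 and 1 in the last 3 stage comparisons, because *Sim1* was then not tested. The single fit of 21 libraries gave 1 for D6 against D5, and leaving the filter out gave 5 for D6 against D4. With libraries left out 1 at a time, the counts ranged from 1 to 2 for D6 against D5 (1 without replicate 2 of D6) and from 1 to 3 for D6 against D4 (1 without replicate 1 of D4). The third was *En1*, which passed the filter only in some of these refits. With the replicate number as a block, the counts of fate factors called did not move, with log2 fold changes from D5 to D6 of 1.62 for *Sim1* (edgeR, adjusted p = 0.00130) and 1.88 for *Gata2* (adjusted p = 0.000309).

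Of the values of single factors, 44 turned in direction, all of them with a library left out and for differences that had not passed the test. Their log2 ranges over these refits follow. For D4H8 against D4 they were -0.70 to 0.21 for *Gata2* and -0.47 to 0.20 for *Gata3*. *Gata2* from D4H8 to D5 ranged from -0.60 to 0.33, and *Gata3* from D5 to D6 from -0.19 to 0.66. For GSKJ4 at D5 they were -0.78 to 0.29 for *Gata3* and -1.31 to 0.26 for *Sim1*, and at D6 -0.44 to 0.18 for *Gata2* and -0.61 to 0.22 for *Sim1*. For the effect at D5 minus D4H8 they were -0.54 to 0.33 for *Gata2*, -0.63 to 1.33 for *Sim1* and -2.48 to 0.93 for *Tal1*. For D6 minus D5 they were -0.99 to 0.05 for *Gata3*, -0.44 to 1.19 for *Sim1*, -2.07 to 0.95 for *Tal1* and -0.38 to 1.03 for *Lhx5*. For D6 minus D4H8 they were -0.37 to 1.38 for *Sim1* and -2.17 to 0.41 for *Tal1*. The causes were not tested.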
